A study of Mus musculus with 9 samples.

Results

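Within each genotype of a series of 3-week-old mouse testes, the library in the middle of the first wave of spermatogenesis was compared with the earliest one. The libraries were ranked by the level of round spermatid transcripts, so they were chosen on their own expression and not by a label. They make up 6 of the 9 libraries of the series, 1 middle and 1 early library for each of 3 genotypes, and the remaining 3 libraries are the latest of each genotype. The study sequenced RNA of whole testes from *Piwil4* WT/WT, WT/R264W and R264W/R264W mice. The knock-in was made by CRISPR-Cas9 injection of C57BL/6 zygotes and exchanges 1 arginine of PIWIL4, a PIWI protein that is guided by piRNAs in male germ cells. The middle libraries are replicate 2 of each genotype. The early libraries are replicate 3 of *Piwil4* WT/WT, replicate 3 of *Piwil4* WT/R264W and replicate 1 of *Piwil4* R264W/R264W. All mice were the same labelled age, and the labels give no litter, weight or histology. Values for the 3 genotypes are given in the order *Piwil4* WT/WT, WT/R264W and R264W/R264W throughout.

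In the first wave, germ cells of the young testis pass through mitosis, meiosis and spermiogenesis nearly in step, so each stage adds its transcripts to the organ when its first cells arrive. Pachytene spermatocytes already transcribe many genes of the later sperm. Round spermatids then start those for the acrosome, the tail sheath and the basic proteins that replace histones, and they transcribe part of the sex chromosomes again after their silencing in meiosis. In RNA of a whole organ, fewer cells of a type and less RNA per cell cannot be told apart.

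A score written for this work, the mean log2 CPM over 19 round spermatid genes, gave the order of that ranking within each genotype, where CPM is the number of counts per 1e6 counts, scaled between libraries. The score was 2.57, 1.99 and 3.44 in the early libraries and 3.44, 4.38 and 4.27 in the middle libraries. The late libraries scored 5.88, 5.07 and 5.75. The step from early to middle was 0.87 log2 units in *Piwil4* WT/WT, 2.39 in WT/R264W and 0.83 in R264W/R264W testes. The step from middle to late was 2.44, 0.69 and 1.48. The middle *Piwil4* WT/WT library and the early R264W/R264W library had the same score, so the order holds within a genotype and not between genotypes. Since spermatid transcripts of the same libraries set the groups, the differences below are described by their size and no p-value is given. A standard error (SE) printed with a fold comes from the fit and does not allow for how the libraries were chosen.

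**Figure D1:**
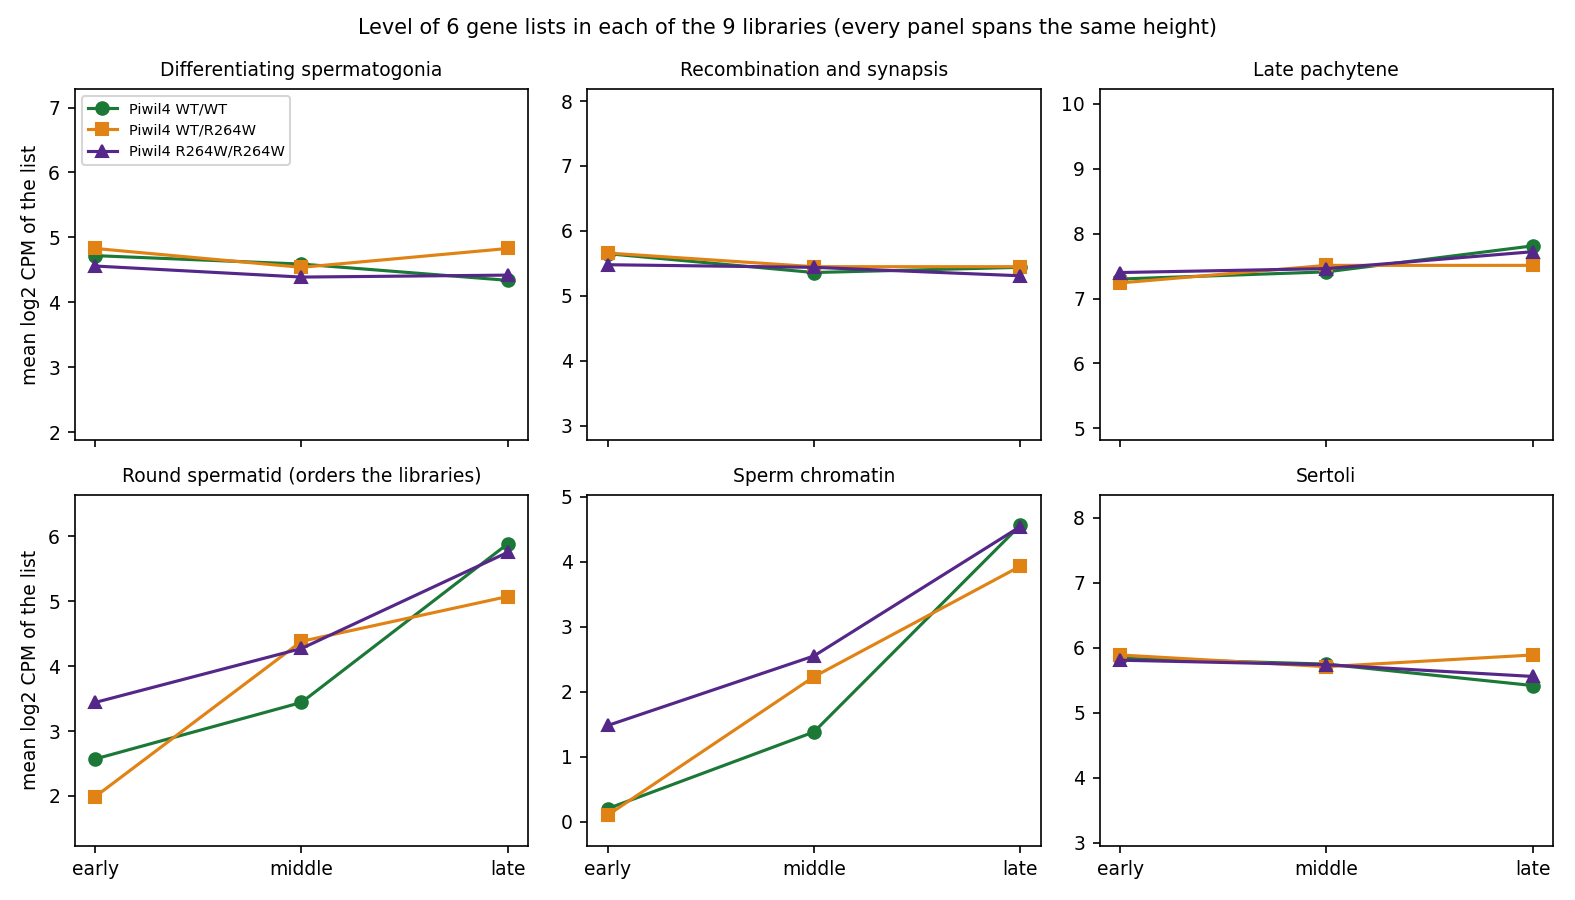
Mean log2 CPM (vertical axis) of 6 gene lists in the early, middle and late library of each genotype (horizontal axis), with 1 point per library, lines joining libraries of 1 genotype and the same axis height in each panel. The sperm chromatin list climbs with the round spermatid score in all 3 genotypes, while the recombination and synapsis list and the Sertoli list stay within a narrow band.

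A list of 17 sperm chromatin genes gave the same order in 3 of 3 genotypes. Many of its members are themselves spermatid transcripts, so their order follows from how the libraries were chosen and is no separate evidence for it. Its mean log2 CPM was 0.20, 0.10 and 1.48 in early, 1.38, 2.23 and 2.55 in middle and 4.56, 3.93 and 4.54 in late libraries. The late pachytene list gave that order in 2 genotypes, the Leydig list in 1, and the spermatogonial, recombination and Sertoli lists in 0. The undifferentiated spermatogonial and Sertoli lists ran in the reverse order in WT/WT and R264W/R264W testes. So did the differentiating list in WT/WT and the recombination list in R264W/R264W testes.

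The total count per library was between 18.0 and 24.3 M, and 3 counts in an early library correspond to a mean of 0.146 CPM. *Piwil4* itself was low, at 1.59, 2.10 and 1.39 CPM in early and 1.66, 1.12 and 1.18 CPM in middle libraries, and since the allele is a missense one its level does not check the genotype labels. Some libraries had more transcripts of other cell types. The summed CPM of 12 epididymal genes was 54.3 in the early R264W/R264W library and between 4.63 and 11.8 in the other 5 libraries, with the defining genes *Lcn8* and *Gpx5* at 0 in each of the 6. The summed CPM of 15 Leydig genes was 676 in the middle R264W/R264W library and between 374 and 469 in the others. The summed CPM of 6 erythroid genes was 360 in the middle WT/WT library and between 118 and 224 in the others. The part of these transcripts in the differences below was not tested, and counts without each library follow.

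Of 15362 genes in the fit, 596 were called higher in the middle libraries and 27 lower. A gene was called when the fitted change was at least 2-fold and the middle library lay on the same side of the early one in each genotype. The calls higher are 3.88% of the genes tested and the calls lower 0.176%. This asymmetry is one of size and not of number. The middle library was above the early one in all 3 genotypes for 3205 genes (20.9%) and below it for 3280 (21.4%). All 3 middle libraries lay above all 3 early ones for 1764 genes (11.5%) and below for 1880 (12.2%). The fitted change of 13991 genes (91.1%) stayed within 1.5-fold, and the median over all genes was -0.02 on the log2 scale. The call itself cuts through a continuum, since *4930433I11Rik* entered at a log2 fold change of 1.001 and *Akap14* stayed out at 0.999. At shares of 3.88% and 0.176% a short list may well hold 0 calls, so 0 calls below says little about a list.

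**Figure D2:**
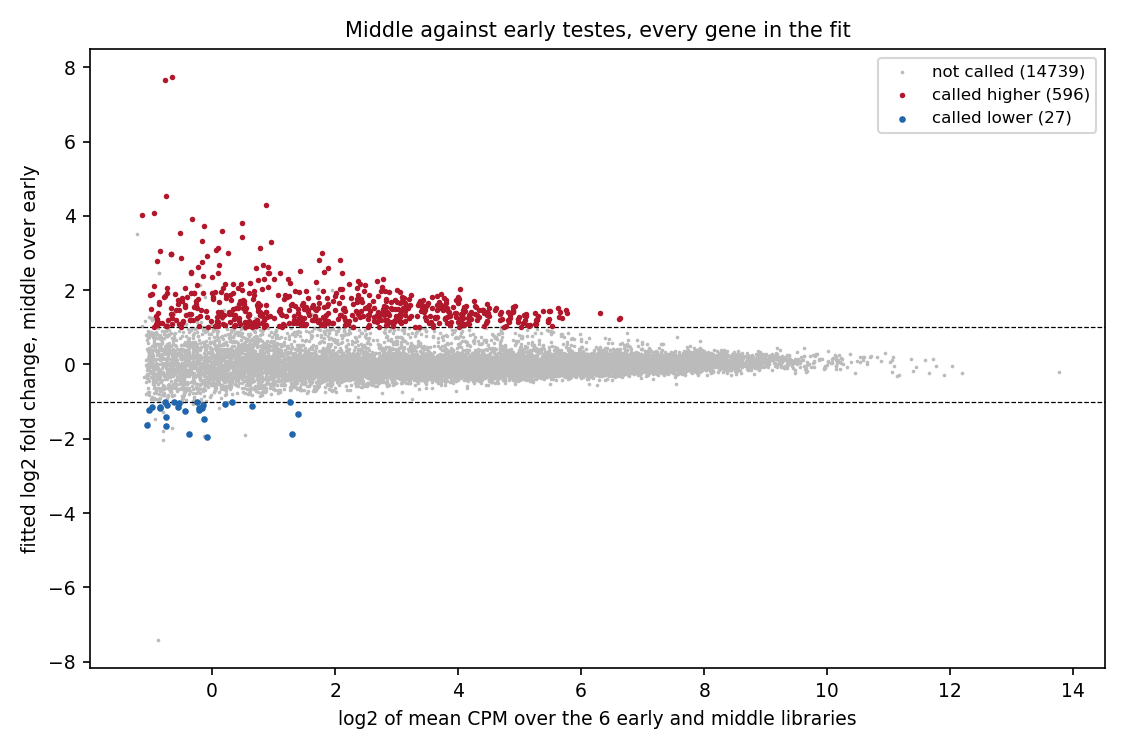
Fitted log2 fold change of middle over early libraries (vertical axis) against the log2 mean CPM over the 6 libraries (horizontal axis), 1 point per gene, with dashed lines at 2-fold. Of the 596 genes called higher, 219 had a middle mean of at least 10 CPM and 202 had an early mean under 1 CPM. The 27 called lower lie at the low end.

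The genes called higher made up a small share of the RNA. They held 0.245%, 0.175% and 0.481% of counts in the early libraries, 0.471%, 0.902% and 0.838% in the middle and 2.35%, 1.45% and 2.10% in the late libraries. Their median log2 difference was 1.02 in *Piwil4* WT/WT, 2.50 in WT/R264W and 0.87 in R264W/R264W testes. The WT/R264W pair thus carried the widest gap, for 530 of the 596 genes, and it is also the pair with the widest gap in the score. A 2-fold difference in each genotype taken alone was present for 130 genes. Leaving out either WT/R264W library left 315 or 313 genes called higher, while leaving out a WT/WT library gave 763 and an R264W/R264W library 848 or 847. When 1 library is left out its partner adds nothing to the contrast, so those counts ask for the same direction in 2 genotypes only. Of the 596, 256 were called whichever library was left out.

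The 27 genes called lower were all scarce. None of them reached 4 CPM in the early mean. They held between 0.00357% and 0.004% of counts in the early libraries and between 0.00149% and 0.00172% in the middle ones. The 4 with a 2-fold difference in each genotype are too few and too low to describe as a group.

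Among the genes with a mean of at least 10 CPM, the 12 with the widest fitted change were *Atp1a4*, *Ccdc54*, *Pdzk1*, *Znrf4*, *Galntl5*, *Oaz3*, *Rnf151*, *Ropn1*, *Ttll10*, *Tssk2*, *Mroh7* and *Fscb*. *Atp1a4*, the sodium pump subunit of sperm, was at 4.10, 2.47 and 14.9 CPM in early, 13.3, 30 and 33.1 CPM in middle and 166, 82.0 and 136 CPM in late libraries. Its middle levels were higher within each genotype, but the middle WT/WT library stayed below the early R264W/R264W one. The fitted change was 4.10-fold (log2 2.04, SE 0.40, n = 3 a side), and log2 1.38 without either WT/R264W library. Leaving out either of those libraries lowered the fitted fold change by over 1.5 times for 14 of 35 called genes that were followed through the alternatives. *Oaz3*, the antizyme of spermatids, went from 4.20, 3.26 and 12.5 CPM to 13.1, 26.4 and 22.7 CPM, a fitted change of 3.42-fold with groups that did not overlap. *Ropn1*, a fibrous sheath protein that binds kinase anchors, went from 4.20, 3.47 and 12.6 CPM to 11.8, 26.4 and 24.7 CPM, and here the groups overlapped. *Fscb*, another fibrous sheath component, closed the 12 at 3.28-fold. Their fitted changes were thus alike in size, from 3.28-fold to 4.10-fold.

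**Figure D3:**
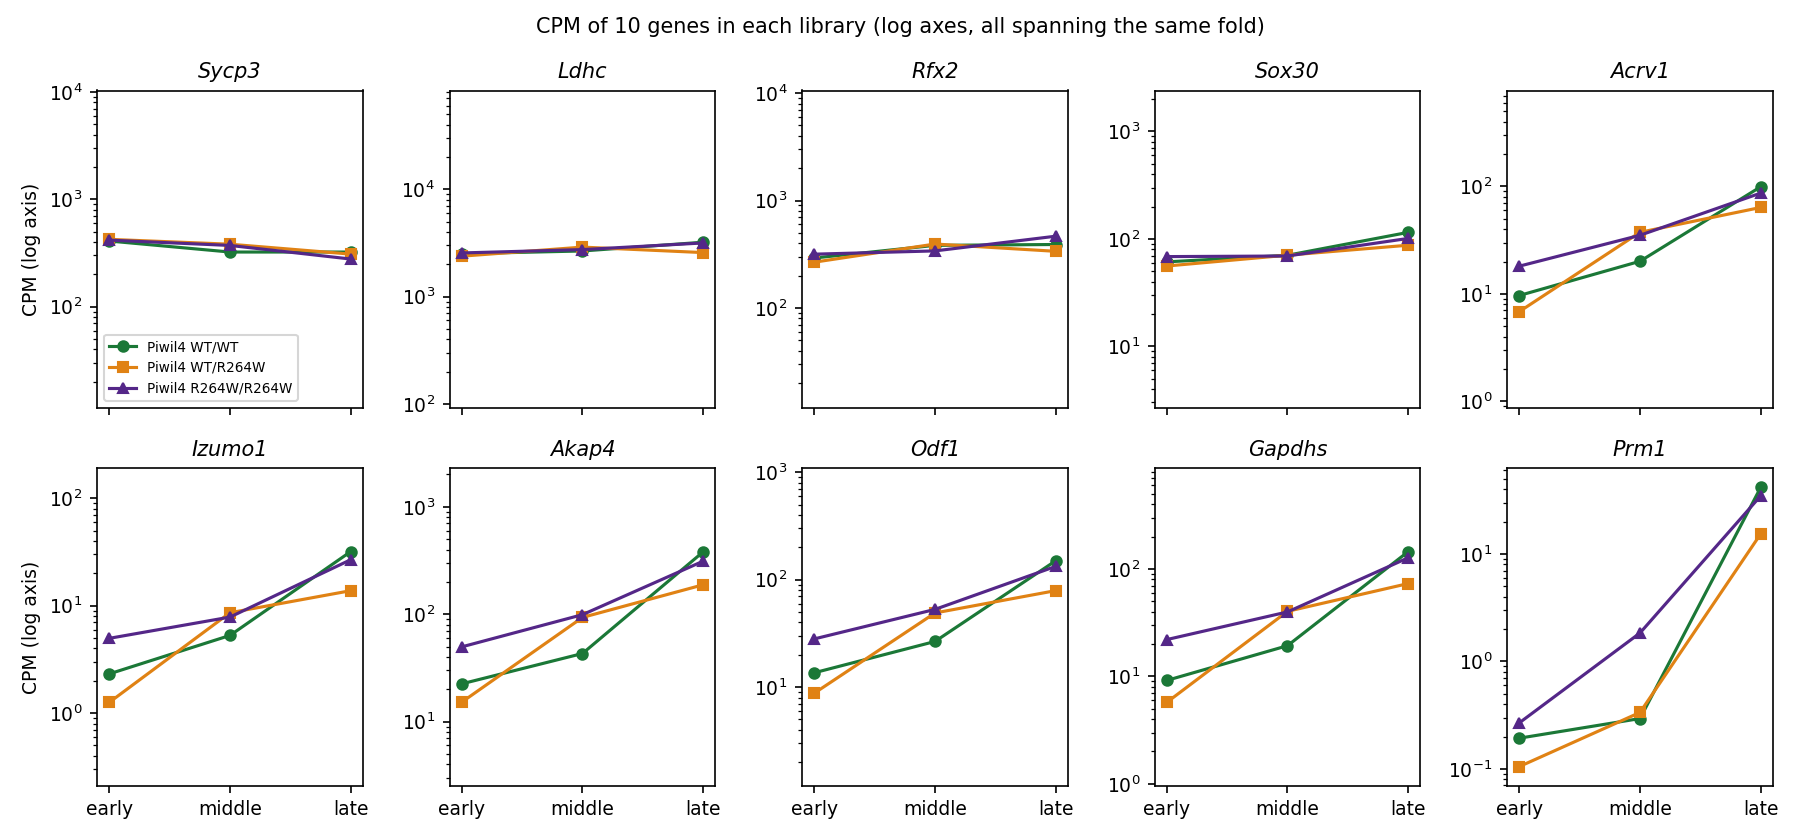
CPM (log vertical axes that span the same fold in every panel) of 10 genes in the early, middle and late library of each genotype, with 1 point per library. *Sycp3*, *Ldhc*, *Rfx2* and *Sox30* are nearly level, *Acrv1*, *Izumo1*, *Akap4*, *Odf1* and *Gapdhs* climb through both steps, and *Prm1* climbs mostly after the middle position.

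The 19 score genes are described first because transcripts of their kind set the contrast. All 19 were above early in each genotype, beside 20.9% of all genes, and 15 were called higher, beside 3.88% of all genes. Their median was 2.68-fold. *Acrv1*, which encodes a protein of the acrosomal matrix, was at 9.65, 6.83 and 18.1 CPM in early, 20.1, 37.4 and 35.1 CPM in middle and 99.3, 63.7 and 86.7 CPM in late libraries. Every middle library was above every early one, a separation that the ranking favours, and the fitted change was 2.75-fold (log2 1.46, SE 0.27). *Spaca1*, an acrosomal membrane protein, went from 18.5, 15.4 and 28.3 CPM to 29.7, 54.8 and 51.9 CPM. *Sun5*, which joins head and tail, had the widest change of the list at 3.81-fold (log2 1.93, and 1.24 without either WT/R264W library), and *Actl9*, an actin-like protein of the sperm head, the narrowest at 1.26-fold. *Tssk6*, a kinase of late spermatids, stayed just under the call. Its levels were 1.83, 1.26 and 1.12 CPM in early and 1.86, 3.18 and 3.10 CPM in middle libraries, so the WT/WT pair did not separate, and it then stood at 23.4, 9.96 and 19.9 CPM in the late libraries.

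Sperm chromatin genes included very scarce transcripts. Of 17 genes, 12 passed the filter on low counts and 8 of those were called higher, beside 3.88% of all genes. The list median was 3.13-fold (log2 1.64). A member that passed the filter only through its middle counts had to differ, and with at least 10 counts required in every library the median was 0.06 on the log2 scale. *Tnp1*, a transition protein that takes the place of histones, had 0, 3 and 3 counts in early and 18, 27 and 51 counts in middle libraries. In CPM it was 0, 0.158 and 0.134 and then 0.881, 1.51 and 2.08, which is at least 10.2-fold higher on average against a floor of 3 counts in each early library. *Prm2*, a protamine, went from 0.0965, 0 and 0.626 CPM to 0.783, 1.79 and 2.37 CPM. *Tnp2*, the other transition protein, went from 0.579, 0.105 and 0.984 CPM to 1.18, 2.79 and 5.71 CPM. *Prm1* was at 0.193, 0.105 and 0.268 CPM in early and 0.294, 0.335 and 1.84 CPM in middle libraries, so that the R264W/R264W pair had the widest gap. In the late libraries *Prm1* stood at 41.7, 15.4 and 34.8 CPM. The remodelling genes *Phf7*, a histone ubiquitin ligase, and *Pygo2*, a reader of methylated histones, were fitted at 1.08-fold and 0.99-fold.

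Acrosome genes ranged from called to near level, and most egg fusion genes were called. Of 24 acrosome genes 11 were called higher, beside 3.88% of all genes, with a median of 1.38-fold. In every genotype 21 were above early, beside 20.9% of all genes. *Hyal5*, a sperm hyaluronidase, went from 2.80, 1.58 and 8.63 CPM to 7.29, 17.3 and 18.8 CPM, 3.67-fold in the fit (log2 1.87, and 1.23 without either WT/R264W library). *Adam3*, a membrane protein needed to reach the egg and the acrosome gene with the highest FPKM, was at 586, 540 and 692 CPM in early and 708, 770 and 693 CPM in middle libraries, only 1.20-fold. *Gopc*, a Golgi protein of acrosome assembly, was slightly lower at 0.92-fold. Of 10 egg fusion genes 8 were called higher, beside 3.88% of all genes, with a median of 2.68-fold (log2 1.42). Under the alternatives that use all 6 libraries this median lay between log2 0.88 and 1.47. *Izumo1*, the sperm ligand of the egg receptor, belongs to the score and went from 2.32, 1.26 and 4.97 CPM to 5.29, 8.60 and 7.84 CPM. *Spaca6*, which is also needed for fusion, went from 0.434, 0 and 0.537 CPM to 0.881, 1.95 and 2.20 CPM. Its early counts alone lay under the filter, so it passed only through its middle counts and had to differ. Its fitted log2 change was 2.36, and between 0.90 and 2.68 under the alternatives that use all 6 libraries. *Izumo4* was fitted at 1.36-fold.

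Of 16 fibrous sheath and outer dense fibre genes 10 were called higher, beside 3.88% of all genes, with a median of 2.49-fold. All 16 were above early in each genotype, beside 20.9% of all genes. *Akap4*, the main scaffold of the fibrous sheath, went from 22.5, 15.2 and 49.7 CPM to 43.1, 93.4 and 99.1 CPM. The middle WT/WT library again lay below the early R264W/R264W library. *Odf1*, an outer dense fibre protein, went from 13.6, 8.78 and 28.1 CPM to 26.6, 49.0 and 52.9 CPM. *Odf3* had the widest change of the list at 4.44-fold (log2 2.15, and 1.56 without either WT/R264W library), while the abundant *Odf2* was at 1.22-fold. Of 39 axoneme genes 1 was called higher, beside 3.88% of all genes, and the list median was 1.15-fold, although 31 of the 39 were above early in all 3 genotypes, beside 20.9% of all genes. The gene called was *Dnah3*, a dynein heavy chain, at 12.8, 8.41 and 27.4 CPM in early and 33.1, 52.3 and 49.0 CPM in middle libraries. *Rsph1*, a radial spoke protein and the axoneme gene with the highest FPKM, was fitted at 1.04-fold.

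Of 12 genes of the CatSper calcium channel 3 were called higher, beside 3.88% of all genes. *Tmem262*, an accessory subunit, was at 0.579, 0.210 and 0.895 CPM and then at 1.08, 2.29 and 2.33 CPM, whereas *Catspere2* was fitted at 0.97-fold. The pore subunit gene *Catsper3*, counted with the score, went from 2.90, 1.73 and 6.58 CPM to 4.41, 14.0 and 11.1 CPM. Among 17 genes of the manchette and the head-tail coupling, 3 were called higher, beside 3.88% of all genes, and the median was 1.19-fold. *Spag4*, a SUN-domain protein of the tail base, went from 5.07, 4.21 and 10.7 CPM to 13.2, 22.9 and 22.8 CPM without overlap.

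Of 10 genes listed for testis glycolysis 3 were called higher, beside 3.88% of all genes. Not all of the 10 are testis-specific (*Hk1*, *Tpi1* and *Pgam2*) or glycolytic (*Pdha2*). *Gapdhs*, the sperm form of glyceraldehyde-3-phosphate dehydrogenase, is counted in the fibrous sheath list too. It went from 9.17, 5.73 and 22.0 CPM to 19.3, 40.3 and 39.8 CPM. *Pgk2* and *Ldhc*, which spermatocytes already transcribe, were fitted at 1.3-fold and 1.11-fold. Of 10 somatic isozymes 0 were called, which is near the share of all genes.

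**Figure D4:**
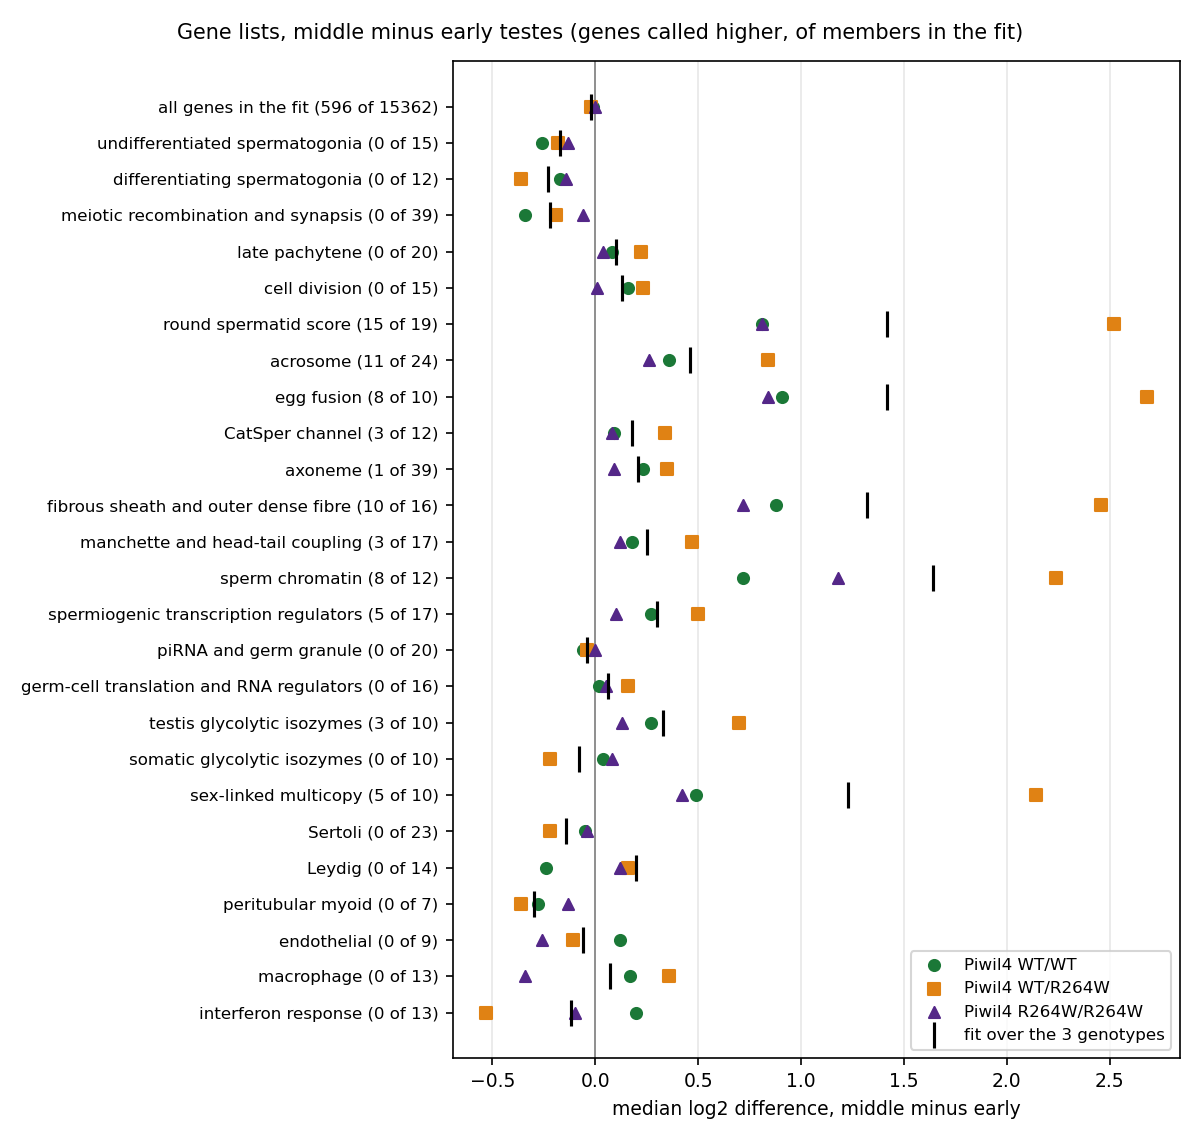
Median log2 difference of middle minus early libraries (horizontal axis) for 25 gene lists and for all genes, with a coloured symbol for each genotype, a black bar for the fitted median, and the number of genes called higher of those in the fit behind each name. The lists of round spermatid, egg fusion, fibrous sheath, sperm chromatin and sex-linked multicopy genes stand to the right in every genotype, and furthest in WT/R264W.

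Regulators of spermatid genes mostly differed little in size, though most were above early in every genotype. Of 17 genes on this list, which also holds the kinesin *Kif17*, 5 were called higher, *Kif17* among them, beside 3.88% of all genes. The list median was 1.23-fold, and 14 of the 17 were above early in every genotype, beside 20.9% of all genes. *Fhl5*, a coactivator of CREM in spermatids, went from 1.83, 0.736 and 5.19 CPM to 3.67, 10.2 and 10.6 CPM and to 56.9, 31.0 and 46.2 CPM in the late libraries. *Crem* was at 125, 116 and 140 CPM in early and 131, 163 and 149 CPM in middle libraries, 1.16-fold in the fit. *Rfx2*, a regulator of cilia and spermatid genes, was at 292, 267 and 317 CPM in early and 383, 394 and 340 CPM in middle libraries. *Sox30*, which spermatids need to develop, was at 61.1, 55.9 and 68.4 CPM and then at 70.4, 70.5 and 69.3 CPM. The groups of both did not overlap, yet their changes were 1.28-fold and 1.14-fold. *Taf7l*, a testis TFIID subunit, was lower at 0.74-fold, and *Tbpl1*, a TBP-like factor, was at 1.08-fold.

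CREM binds the cyclic AMP response element, whose palindrome is TGACGTCA. RefSeq promoters were matched for 457 of the 596 genes called higher (76.7%) and for 12187 of the genes in the fit (79.3%). In the 250 bases before the start, the palindrome was present on either strand in 7 of the 457 (1.53%), in 308 of the 12187 (2.53%) and in 1.62% of all 27025 RefSeq promoters given. Its shorter form TGACG was present in 10.1%, 24.8% and 17.9%. Fewer than 80% of the genes of either set were matched, so a comparison of these shares is void. All 7 hold the palindrome within the last 120 bases before the transcription start, and the stretches of 4 of them are shown to place the element beside their levels. *Fam71e1*, *Ccin* and *H4c1* are not shown. The stretches are given 5′ to 3′ on the gene's strand with the palindrome in capitals. A match of letters is a description and not a shown binding site.
Znrf4: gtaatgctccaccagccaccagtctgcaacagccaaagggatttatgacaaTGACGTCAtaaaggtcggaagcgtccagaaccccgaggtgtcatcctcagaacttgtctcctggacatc
Spag4: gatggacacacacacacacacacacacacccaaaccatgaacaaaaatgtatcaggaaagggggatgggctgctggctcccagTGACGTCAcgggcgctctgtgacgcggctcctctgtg
Kif17: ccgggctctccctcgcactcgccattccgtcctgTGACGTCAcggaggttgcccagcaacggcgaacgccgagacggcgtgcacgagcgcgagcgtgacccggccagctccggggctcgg
Izumo1: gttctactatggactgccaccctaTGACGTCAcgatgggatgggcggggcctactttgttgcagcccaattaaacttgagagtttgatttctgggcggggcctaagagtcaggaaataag
These 120-base stretches are from GRCm38.p6, at chr17:56512484-56512603 on the minus strand for *Znrf4*, chr2:156065093-156065212 on the plus strand for *Spag4*, chr4:138262131-138262250 on the plus strand for *Kif17* and chr7:45621691-45621810 on the plus strand for *Izumo1*. The element starts 69, 37, 86 and 96 bases before the transcription start. The 4 genes had mean levels of 7.35, 6.66, 23.4 and 2.85 CPM in early and 24.7, 19.6, 54.1 and 7.24 CPM in middle libraries. *Kif17*, a kinesin that carries the CREM coactivator, was picked for its sequence after its values had been seen, as were the 3 genes not shown.

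A larger share of genes was called higher on the sex chromosomes than on the autosomes. On autosomes 501 of 14537 genes (3.45%) were called higher, on the X 64 of 689 (9.29%) and on the Y 29 of 95 (30.5%). The median log2 fold change was -0.02 on autosomes, -0.13 on the X and 0.85 on the Y. The X therefore combined a larger share of genes called higher with a median slightly below that of the autosomes. Of the 29 on the Y, 28 carry the Gm names of predicted genes and the other is *Sly*, a Y-linked regulator of spermatid sex chromosomes. *Sly* was at 5.45, 4.21 and 13.7 CPM in early and 12.4, 20.2 and 18.2 CPM in middle libraries. Many spermatid genes of the mouse Y are near-identical copies that share reads, so levels of single Y genes are uncertain. The share of 30.5% and the median of 0.85 count such copies as separate genes. *Cypt3*, an X-linked gene of the perinuclear theca family, went from 0.676, 0.736 and 2.01 CPM to 2.99, 4.30 and 5.27 CPM without overlap. *Zfy1*, a zinc finger gene of the Y, was fitted at 0.85-fold.

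At the detection floor, 4 genes had at most 3 counts in each early library and at least 10 in each middle library, namely *Tnp1*, *Gm2004*, *Prss55* and *Gm33815*, and 0 genes showed the reverse. *Prss55*, a testis serine protease, had 0, 0 and 3 counts and then 10, 16 and 50, and it was at least 7.83-fold higher. *Gm2004* had 0 counts in all 3 early libraries and 20, 26 and 34 in the middle ones, but again 0 in the late WT/R264W library. It therefore did not follow the wave in that genotype. *Gm33815*, on the Y, had 0, 3 and 2 counts and then 13, 17 and 24.

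Genes of the earlier stages differed little and were mostly lower. Of 39 recombination and synapsis genes 0 were called, but 20 were below early in all 3 genotypes, beside 21.4% of all genes, and the list median was 0.86-fold. *Sycp1* and *Sycp3*, of the synaptonemal complex, were at 755, 753 and 796 CPM and 409, 424 and 417 CPM in early libraries. They were at 561, 716 and 677 CPM and 323, 382 and 372 CPM in middle libraries, below all early ones. *Dmc1*, the recombinase of strand exchange, was at 52.6, 46.3 and 31.6 CPM in early and 31.1, 27.4 and 33.8 CPM in middle libraries, lower in 2 genotypes and not in R264W/R264W. *Mei4*, which acts in break formation, had the lowest change of the list at 0.65-fold, and *Rec8*, a meiotic cohesin, the highest at 1.46-fold.

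The spermatogonial lists likewise had 0 genes called, beside 3.88% of all genes called higher and 0.176% called lower. Their medians were 0.89-fold for 15 undifferentiated and 0.85-fold for 12 differentiating genes. *Zbtb16*, a stem cell regulator, was at 13.5, 14.1 and 13.8 CPM in early and 14.4, 13.5 and 11 CPM in middle libraries. *Stra8*, which starts meiosis, was at 32.4, 37.7 and 28.1 CPM in early and 26.2, 22.0 and 27.2 CPM in middle libraries, lower without overlap. *Kit*, the receptor of differentiating spermatogonia, was at 46.1, 42.4 and 43.2 CPM and then at 46.0, 36.9 and 32.3 CPM. Late pachytene genes stood close to level, with a median of 1.08-fold and 0 of 20 called, beside the same shares of all genes. Their *Ccna1*, the cyclin of the meiotic divisions, was at 107, 92.5 and 127 CPM and then at 142, 163 and 133 CPM, while *Piwil1*, the PIWI protein of pachytene piRNAs, was at 907, 828 and 774 CPM and then 889, 782 and 847 CPM. The cell division list, with a median of 1.09-fold, had *Plk1* at its top with 1.43-fold.

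The lists for piRNA factors and for germ-cell translation had 0 genes called of 20 and 16, beside 3.88% of all genes called higher and 0.176% called lower. Their medians were 0.97-fold and 1.04-fold. *Tdrd6*, a Tudor protein of the chromatoid body, was at 781, 767 and 931 CPM in early and 1080, 953 and 949 CPM in middle libraries. *Tent5c*, a poly(A) polymerase, reached the highest fitted change of both lists at 1.46-fold, and *Dazl*, an RNA-binding protein of earlier germ cells, was at 0.84-fold.

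Markers of somatic cells were called in 0 cases, beside 3.88% of all genes called higher and 0.176% called lower. In lists this short, 0 calls is near those shares. The 23 Sertoli genes had a median of 0.91-fold and a summed level of 3460, 3680 and 3430 CPM in early and 3400, 3240 and 3220 CPM in middle libraries. *Sox9*, their transcription factor, was at 33.9, 34.7 and 32.4 CPM and then at 33.5, 26.0 and 25.2 CPM. The 14 Leydig genes in the fit had a median of 1.15-fold with 10 above 0, but the list median was below 0 in WT/WT testes. *Insl3*, a Leydig hormone and the gene of the list with the highest FPKM, was at 25, 29.6 and 86.2 CPM and then at 55.4, 89.2 and 59.4 CPM, 1.65-fold in the fit. *Star*, which moves cholesterol in Leydig cells, was at 36.0, 14.8 and 14.4 CPM and then at 11.5, 13.1 and 45.7 CPM, so the genotypes went in opposite directions. The myoid list had a median of 0.81-fold with 5 of 7 genes below early in each genotype, beside 21.4% of all genes. *Cnn1*, a calponin of smooth muscle, was the lowest at 0.722-fold. *Acta2*, smooth muscle actin, was at 132, 93.8 and 88.1 CPM and then 76.2, 72.4 and 80.5 CPM. *Actg2*, another smooth muscle actin, had the widest change of the list and went the other way, from 7.0, 3.57 and 8.54 CPM to 7.05, 11.9 and 12.7 CPM, 1.68-fold in the fit. The endothelial, macrophage and interferon response lists had medians of 0.96-fold, 1.05-fold and 0.92-fold with 0 genes called. In each of these lists, too, the medians of single genotypes lay on both sides of 0. The erythroid, striated muscle, adipose and epididymal lists also had 0 genes called, and their medians lay on different sides of 0 in different genotypes.

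The middle libraries were also placed between the early and the late ones. For each gene whose late mean was at least 4-fold above its early mean, the percentage of the log2 difference already reached in the middle was computed. Over 593 such genes the median was 48.5%, with quartiles of 43.5% and 52.9%. Levels were averaged over the 3 genotypes before the percentage was taken, and the middle libraries did not lie at the same place in each genotype. In the score, the step from early to middle was 0.87, 2.39 and 0.83 log2 units. The step from middle to late was 2.44, 0.69 and 1.48. The percentages therefore describe an average of unlike positions and not the place reached in a single genotype. The list medians ran from 43.4% for sperm chromatin over 8 genes to 52.9% for the CatSper channel over 3 genes. The manchette and testis glycolytic lists were at 52.3% and 51.4% over 3 genes each, and the acrosome and egg fusion lists at 50.8% over 12 and 50.7% over 8 genes. The fibrous sheath list reached 47.4% and the sex-linked multicopy list 43.7%. These medians lie about within the quartiles of all such genes, so they give no order of the lists, and the late level enters every value. Single genes ranged more widely. *Prm1* had reached 21.1%, *Tssk6* 25.8%, *Tnp2* 34.5% and *Prm2* 40.7%, against 48.7% for *Tnp1* and 50.5% for *Acrv1*. *Znrf4*, a ubiquitin ligase of spermatids, had reached 56.7% and *Sly* 62.2%.

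**Figure D5:**
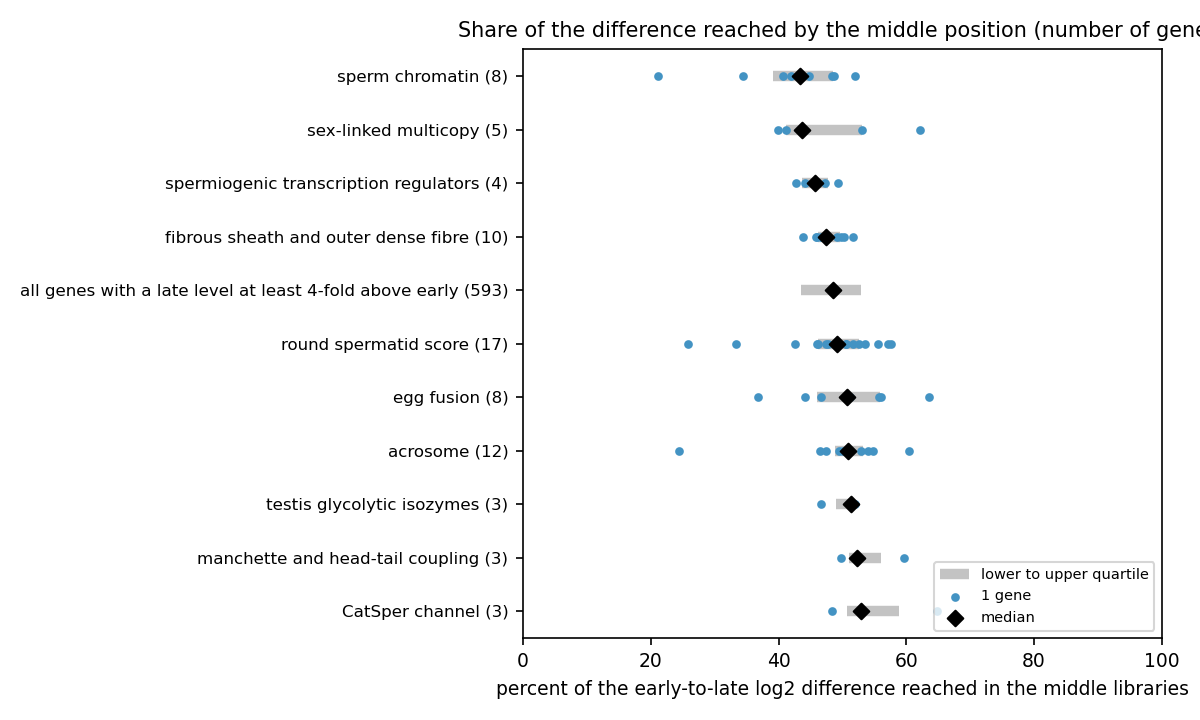
Percent of the log2 difference between early and late libraries that was reached in the middle libraries (horizontal axis), with a blue point per gene, a black diamond for the median and a grey bar between the quartiles of each list, and the number of genes behind each name. The medians lie between 43.4% and 52.9%, and the 2 lowest genes of the sperm chromatin list, *Prm1* and *Tnp2*, lie well to the left. Levels are averaged over the 3 genotypes, so the values do not describe a single genotype.

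Of the 596 genes called higher, 485 (81.4%) were higher again in the late library of each genotype, beside 14.1% of all genes. The late libraries were chosen by the same ranking, so a further rise of spermatid transcripts follows from that choice. The share of 81.4% is therefore no separate evidence of a continued rise. The 596 genes had a median difference from middle to late of 1.42 on the log2 scale. Of them, 258 had a wider step from middle to late than from early to middle, against 333 with a narrower one. These steps are averages over the 3 genotypes, whose middle libraries lay at different places between early and late. For 39 genes the late mean was below the middle mean. Both steps share the middle libraries, so a low middle value widens the later step and narrows the earlier one.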

How the data were processed

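Paired-end libraries of 9 whole testes were sequenced by the authors, and the submitters' processing notes name fastp 0.18.0, StringTie 1.3.1, DESeq2 and the build mm39. The aligner, annotation release and counting tool are not given in the sources used here. The deposited table holds, for 22337 genes, an FPKM value from the authors and an estimated count (expected count). The deposited estimated counts carry no scaling between libraries, 89.2% of them are whole, and the rest were rounded. Authors' annotation columns were not used.

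Counts of the 3 middle and 3 early libraries were fitted with edgeR 4.0.16 (R 4.3.3, quasi-likelihood fit, genotype as a term) for genes with a mean count of at least 10. Levels are CPM with TMM factors from all 9 libraries, and log2 CPM uses a prior count of 1. The fit was tested on simulated data. Totals were 18.0 to 24.3 M counts, and floors of 3 counts cover counting error only. The labels number the replicates but do not say whether each library is a separate animal.

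The members and lists were chosen with earlier results of these data known. The position of each library came from round spermatid transcripts, and the 19 score genes are a list written for this work. Named genes were a panel of 35, the 12 genes called in each direction with the widest change and a mean CPM of at least 10 (0 of those called lower reached it), genes absent in early and present in middle libraries, for each list the members with the widest and narrowest change and the highest FPKM, and the 3 most abundant of 58 genes past 2-fold without one direction. *Kif17*, *Fam71e1*, *Ccin*, *H4c1*, *Akap14*, *4930433I11Rik*, *Lcn8* and *Gpx5* are outside this rule and were picked with their values known. Genes were matched to RefSeq promoters (GRCm38.p6) by identifier and symbol, and no coordinate was carried between builds.

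Alternatives were DESeq2 1.42.0 and its size factors, total counts, TMM over 6 libraries, 3 other filters, no genotype term, all 9 libraries in one fit, limma 3.58.1 on log2(FPKM + 0.1) and log2(FPKM + 1), and each library left out. *Tdrd10* and *Teddm1* have no entry in the table as used here.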

Additional observations from a re-analysis of the deposited data

Results flagged for a closer look

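Of the genes named here, 7 differed at least 2-fold in opposite directions in different genotypes, and with 1 pair of libraries per genotype the difference between genotypes was not tested. The middle minus early difference in log2 CPM is given in the order *Piwil4* WT/WT, WT/R264W and R264W/R264W. For the Leydig genes it was -1.65, -0.17 and 1.66 for *Star* and -1.0, 0.22 and 3.26 for *Cyp17a1*. For the epididymal genes it was 6.80, 3.82 and -9.68 for *Crisp1* and 3.19, 1.93 and -7.37 for *Adam7*, with the early R264W/R264W library at 39.5 and 7.92 CPM. For *Mb*, a muscle gene, it was 0.00, -1.67 and 4.72, and for *Neurog3*, a spermatogonial gene under 2 CPM in each library, 0.43, -1.16 and 1.86. For the predicted gene *Gm20924* it was 3.37, 5.91 and -1.46. The summed Leydig and epididymal lists were highest in the libraries in which *Star* and *Cyp17a1* or *Crisp1* and *Adam7* were highest, whereas the summed striated muscle list, at 71.8 CPM in the middle R264W/R264W library where *Mb* was high, lay between 55.8 and 74.9 CPM in the others.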

How the results depend on the processing

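The count of genes called higher stayed between 403 and 875 under 10 alternatives that use all 6 libraries and was 280 with limma on log2(FPKM + 1), where low genes are compressed. The count of genes called lower was 172 with no filter, 6 with at least 10 counts in every library, 10 with limma on log2(FPKM + 0.1) and 2 with limma on log2(FPKM + 1). With each library left out, the higher calls lay between 313 and 848 and the lower calls between 61 and 86, and 8 of the 27 lower calls were made whichever was left out. The number of genes absent in early and present in middle libraries was 1 with at most 0 early counts and 0 with at most 10 early and at least 30 middle counts. Requiring 10 counts in every library removed most sperm chromatin genes and took their median log2 change from 1.64 to 0.06. The 35 called genes given by the naming rule kept their direction under every alternative run, and *Kif17* and *4930433I11Rik* were not followed. The genotype term already sets 1 middle against 1 early library within each genotype. For the replicate number, no paired analysis was possible because all middle libraries carry replicate number 2 and the early ones 3, 3 and 1, so a block on the number cannot be told apart from the position. Low counts limit the values of *Tnp1*, *Prm1*, *Prm2* and *Prss55*, which had at most 14 counts in any early library.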
